A study of Homo sapiens with 12 samples.

Results

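The GADD45 family comprises the 3 genes GADD45A, GADD45B and GADD45G, and all 3 were listed by gene name among the 29657 genes of the SCC15 table and the 31055 genes of the SCC25 table. The family was chosen on its normalized counts in squamocin-treated against DMSO-treated cells, so that comparison is given for the 3 members as a description, without a test. RNA was sequenced from SCC15 and SCC25, HNSCC cell lines derived from human squamous cell carcinomas of the tongue and labelled wild type. Each line was treated for 24 h with squamocin, named ACGs (annonaceous acetogenins) in the sample labels, or with the solvent DMSO as control. There were 3 libraries in each of the 4 groups. Squamocin is a plant acetogenin known as an inhibitor of mitochondrial Complex I. Each line stands for 1 tumor, and the labels do not say that the 3 libraries of a group came from separate cultures, so p-values measure only the spread between these libraries.

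GADD45 genes encode small, acidic, highly related proteins without enzymatic activity that act by binding other proteins. They are known for rapid transcriptional induction by genotoxic, metabolic and ER stress, and they bind MAP3K4 upstream of the p38 and JNK kinases, CDK1 with cyclin B1 at the G2/M transition, and PCNA and p21 at sites of DNA synthesis and repair. GADD45A is a known target of ATF4, GADD45B is a TGF-beta and NF-kappaB responsive member, and GADD45G is a cytokine-induced member that is often silenced in tumors.

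The 3 genes lie on separate chromosomes. GADD45A (ENSG00000116717) spans chr1:67685061-67688338, GADD45B (ENSG00000099860) spans chr19:2476122-2478259 and GADD45G (ENSG00000130222) spans chr9:89605013-89606555, all on the plus strand of GRCh38. Each canonical transcript has 4 exons, and each gene overlaps 0 other annotated genes. The longest identical run between 2 canonical transcripts was 15 bases for GADD45A and GADD45B, 18 bases for GADD45A and GADD45G, and 13 bases for GADD45B and GADD45G. Values of all 3 cover the exons of the whole gene.

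RefSeq promoter windows (GRCh38.p14) were matched for GADD45B and GADD45G, 2 of the 3 members, and not for GADD45A. They are shown so that the sequence at the start of these stress-responsive genes can be read beside their counts. Each window holds 300 bases, from 250 before to 50 after the transcription start. GADD45B occupies chr19:2475877-2476176 and GADD45G chr9:89604762-89605061, both on the plus strand, and capitals mark motif matches.
GADD45B: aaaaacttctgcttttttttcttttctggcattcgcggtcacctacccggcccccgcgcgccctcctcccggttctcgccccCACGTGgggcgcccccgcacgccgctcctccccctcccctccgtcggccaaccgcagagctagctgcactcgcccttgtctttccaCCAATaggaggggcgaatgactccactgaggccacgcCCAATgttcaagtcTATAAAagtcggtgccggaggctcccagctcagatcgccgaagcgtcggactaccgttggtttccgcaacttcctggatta
GADD45G: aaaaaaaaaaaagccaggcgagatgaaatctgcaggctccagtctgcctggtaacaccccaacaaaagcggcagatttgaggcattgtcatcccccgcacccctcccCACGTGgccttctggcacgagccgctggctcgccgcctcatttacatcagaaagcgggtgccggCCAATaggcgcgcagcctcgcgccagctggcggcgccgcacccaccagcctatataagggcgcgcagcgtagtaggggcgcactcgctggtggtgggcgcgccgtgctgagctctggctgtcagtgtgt
The windows contained 61.7% and 62.7% G and C, against a median of 58.7% over 35116 promoters.

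Both windows held a CCAAT box and a CACGTG E-box. In GADD45B the CCAAT letters began 82 and 45 bases before the start, followed by a TATA box (TATAAA) 31 bases before it, and the E-box began 168 bases before it. In GADD45G a CCAAT box began 79 bases and the E-box 143 bases before the start, and the letters TATAAA were not found. Only these exact letters were searched, and the GADD45G window holds the similar letters tatataag shortly before its start. Searched on both strands, CCAAT was held by 34.6% of all promoter windows, TATAAA by 11.5% and CACGTG by 7.26%. None of the matches overlapped another. The letters of the GC box (GGGCGG, 45% of windows), the CRE (TGACGTCA, 1.85%), the AP-1 site (TGACTCA, 4.95%), the C/EBP-ATF element (TGATGCAA, 0.866%) and the octamer (ATTTGCAT, 1.77%) were in neither window. The motifs were chosen after the windows had been seen, and a match is a description of the letters only.

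**Figure D1:**
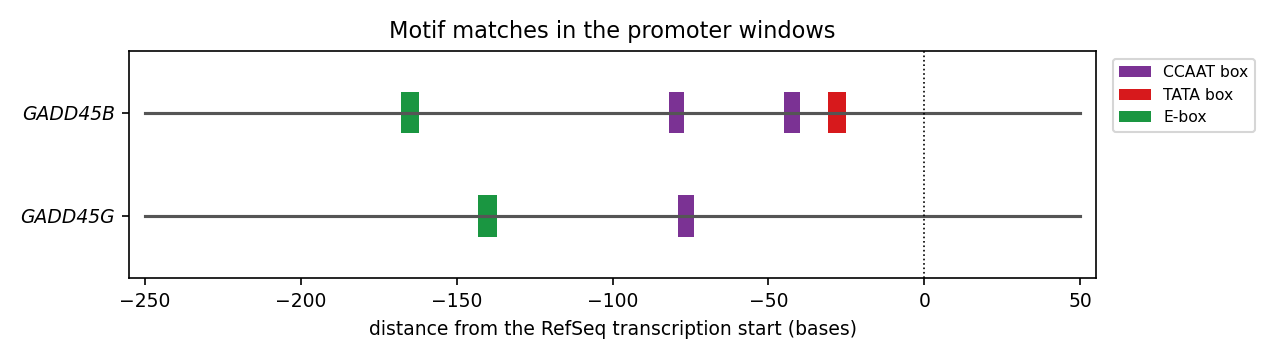
Position of motif matches in the promoter windows of GADD45B and GADD45G, in bases from the RefSeq transcription start (dotted line). Colored blocks mark the CCAAT box, the TATA box and the E-box. Both genes carry an E-box upstream of a CCAAT box. The exact letters TATAAA are drawn in GADD45B, and the similar letters tatataag of GADD45G are not drawn.

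Recovered reads numbered 16665563 to 22748845 per library. The library of SCC15 cells labelled squamocin replicate 3 stood apart from replicates 1 and 2 of its group, with a chi-square per degree of freedom of 71.6 and 63.5 against 1.72 to 11 for the other 10 pairs of replicates. Ratios of the members are given with and without that library. Of 8 epithelial and squamous markers, all 8 exceeded 1 RPM (reads scaled to the library's total) in SCC25 groups, while 4 to 5 did so in SCC15, where KRT17 led and KRT5, EPCAM and DSG3 lay below 1 RPM in DMSO cells. The 6 fibroblast markers summed to 45.6 to 50.7 RPM in SCC15 with DMSO and 19.6 to 23.6 with squamocin, and to 41.8 to 44.3 and 50.6 to 58.7 in SCC25. The 6 immune markers summed to 32.2 to 35 and 15.6 to 20.6 in SCC15, and to 18.4 to 23.4 and 0.900 to 1.54 in SCC25, with LYZ at 0 in SCC15. The 4 endothelial markers summed to 10.2 to 11.5 and 3.13 to 3.67 in SCC15, with CDH5 and KDR at 0, and to 12.7 to 16.2 and 0.929 to 1.80 in SCC25. The part of these markers in the GADD45 values was not tested.

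All 3 GADD45 genes had higher normalized counts with squamocin in both cell lines. GADD45G, the least abundant member, showed the largest ratio, from near absence in DMSO cells, followed by GADD45B and then GADD45A. In SCC15 and in SCC25 every squamocin library lay above every DMSO library for 3 of 3 members. The same separation was seen for 35.7% of the genes tested in SCC15 and 39.4% of those tested in SCC25. In bulk RNA, a change in the number of cells that carry a transcript and a change in its amount per cell cannot be told apart.

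**Figure D2:**
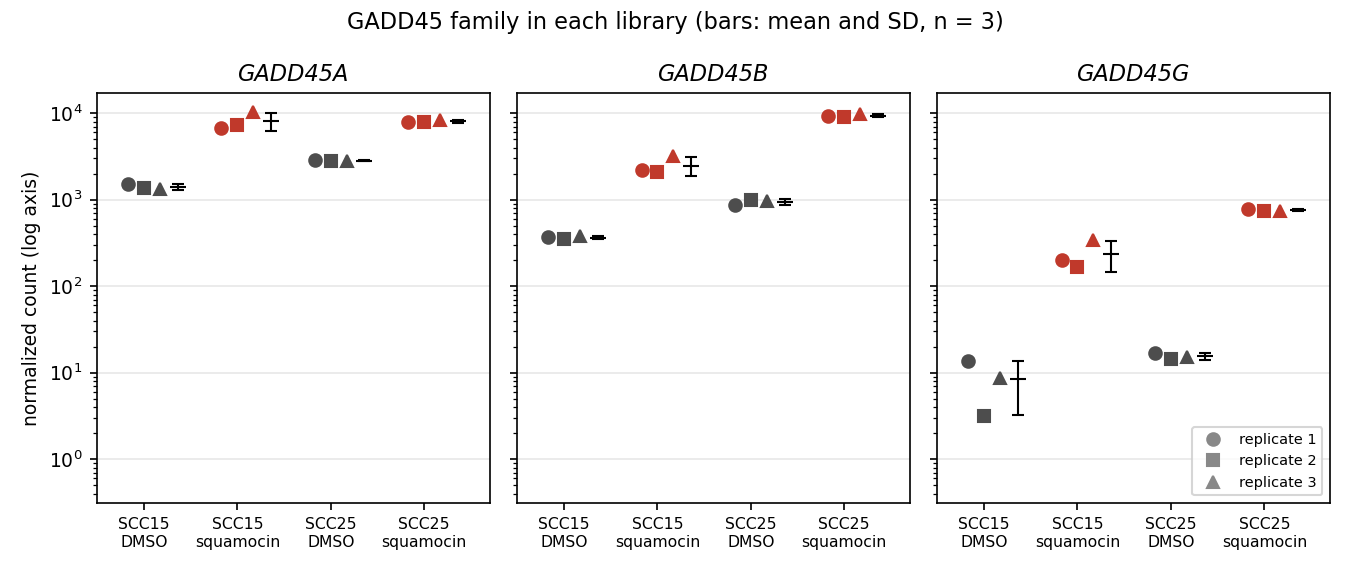
Normalized counts of GADD45A, GADD45B and GADD45G in each of the 12 libraries on a log axis, with symbols for replicates and bars for mean and SD (n = 3 per group). Squamocin libraries (red) lie above the DMSO libraries (grey) of their cell line in every panel, and the squamocin library of replicate 3 is the highest of its SCC15 group for each gene.

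GADD45A, whose protein links stress signals to growth arrest, was the most abundant member in DMSO cells. In SCC15 its normalized counts were 1525, 1376.5 and 1323 with DMSO and 6662, 7362 and 10286 with squamocin. The groups did not overlap, and the squamocin library of replicate 3 was the highest. The means were 1408 ± 105 and 8104 ± 1922 (SD, n = 3), a ratio of 5.75. Without replicate 3 of squamocin the ratio was 4.98.

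In SCC25, GADD45A counted 2880, 2781 and 2832 with DMSO and 7813, 7945 and 8287 with squamocin. Both groups were tight and far apart, at 2831 ± 49.2 and 8015 ± 244 (SD, n = 3), a ratio of 2.83. The log2 fold change of GADD45A was 2.50 ± 0.16 (SE) in SCC15 and 1.5 ± 0.04 in SCC25. The mean squamocin level per exon length was similar in both lines, at 190 ± 24.6 RPKM (RPM per kb of exon) in SCC15 and 197 ± 7.58 in SCC25 (SD, n = 3). The DMSO level was 47.2 ± 3.46 in SCC15 and 80.4 ± 1.27 in SCC25 on that scale. So the lines lay further apart in DMSO than with squamocin, where their ranges overlapped.

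GADD45B, an activator of MAP3K4 with anti-apoptotic and pro-apoptotic roles that depend on the cell, had a larger ratio than GADD45A in both lines. In SCC15 its normalized counts were 367, 348 and 381 with DMSO and 2176, 2076 and 3175 with squamocin. Replicate 3 of squamocin again led its group, and the groups did not overlap. The means were 365 ± 16.4 and 2476 ± 608 (SD, n = 3), a ratio of 6.78, or 5.82 without that library.

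In SCC25, GADD45B counted 867, 997 and 956 with DMSO and 9258, 9016 and 9859 with squamocin. The lowest squamocin library was 9.05 times the highest DMSO library. The means were 940 ± 66.2 and 9378 ± 434 (SD, n = 3), a ratio of 9.98. The log2 fold change of GADD45B was 2.73 ± 0.16 (SE) in SCC15 and 3.32 ± 0.056 in SCC25. Per exon length, squamocin cells of SCC15 held 52.2 ± 7.18 RPKM and those of SCC25 held 208 ± 11.4 (SD, n = 3), against 11 ± 0.52 and 24.1 ± 1.74 with DMSO.

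GADD45G, known as a growth-suppressing member, was near the detection limit in DMSO cells. In SCC15 its normalized counts were 13.6, 3.16 and 8.73 with DMSO, from 16, 4 and 10 reads, and 202, 169 and 345 with squamocin. The DMSO libraries differed widely among themselves, yet all lay far below the squamocin libraries. The means were 8.51 ± 5.25 and 238 ± 93.5 (SD, n = 3), a ratio of 28.0, or 21.8 without replicate 3 of squamocin. The 30 reads summed over the DMSO libraries have a 95% Poisson interval of 20.2 to 42.8, which covers counting error only.

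In SCC25, GADD45G counted 16.9, 14.4 and 15.0 with DMSO and 780, 744 and 738 with squamocin. Here both groups were tight, at 15.5 ± 1.31 and 754 ± 22.9 (SD, n = 3), a ratio of 48.8, and the DMSO libraries summed to 54 reads (95% Poisson interval 40.6 to 70.5). The log2 fold change of GADD45G was 4.76 ± 0.48 (SE) in SCC15 and 5.52 ± 0.13 in SCC25. With a pseudocount of 10 in place of 1 it was 3.72 and 4.91, since the pseudocount lowers the change of a gene with few reads. Per exon length GADD45G reached 8.05 ± 2.29 RPKM in SCC15 and 27.0 ± 0.758 in SCC25 with squamocin (SD, n = 3), from 0.415 ± 0.256 and 0.639 ± 0.0529.

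The SCC15 squamocin library of replicate 3 held 1.47 times the mean normalized count of replicates 1 and 2 for GADD45A, 1.49 times for GADD45B and 1.86 times for GADD45G. On the RPM scale these ratios were 1.23, 1.25 and 1.56. Over all tested genes that library was the highest of its group in 49.8%, with a median ratio of 1.05. The coefficient of variation of the squamocin group was 23.7%, 24.6% and 39.2% for GADD45A, GADD45B and GADD45G in SCC15, and 3.05%, 4.63% and 3.04% in SCC25.

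Among the genes tested, with a mean of at least 10 normalized counts, GADD45G ranked 14 of 15902 in SCC15 and 11 of 16539 in SCC25 by log2 fold change. GADD45B ranked 194 and 139, and GADD45A ranked 240 and 1123. GADD45A thus exceeded 98.49% of genes in SCC15 and 93.21% in SCC25. The median log2 fold change of all tested genes was 0.01 in SCC15 and -0.01 in SCC25. With libraries scaled to equal totals that median was -0.50 and -0.23, and the members moved with it, to 2.00 and 1.29 for GADD45A, 2.23 and 3.11 for GADD45B, and 4.30 and 5.32 for GADD45G. The ranks describe how the members were chosen and support nothing further.

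**Figure D3:**
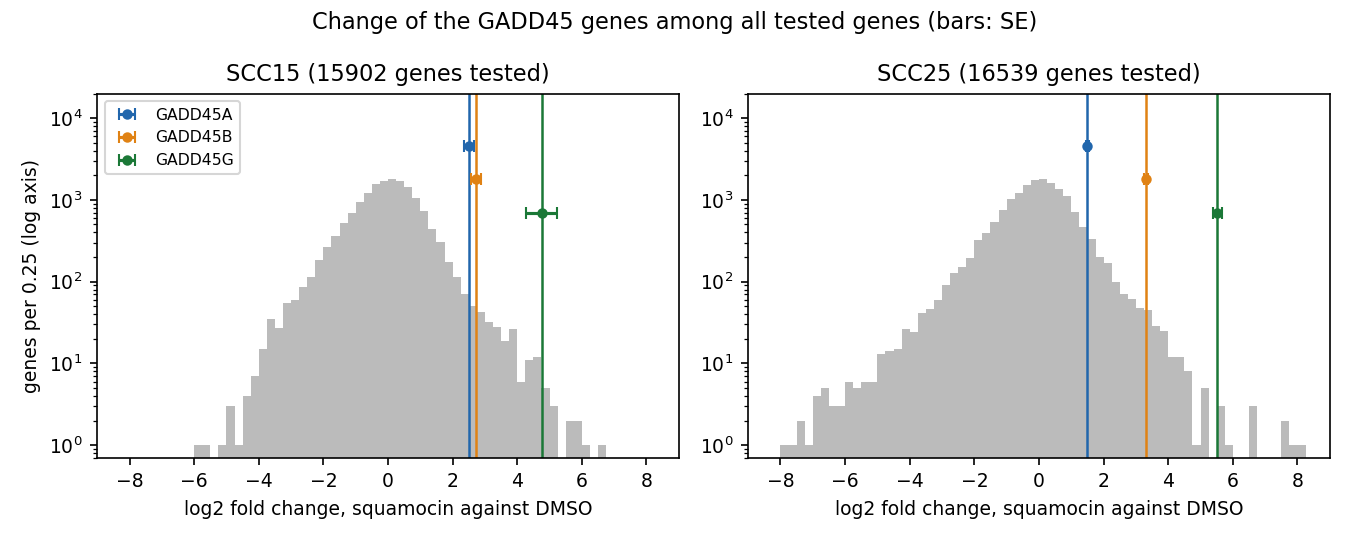
Histogram of log2 fold changes (squamocin against DMSO) of all tested genes in each cell line, with genes per 0.25 on a log axis. Vertical lines and points with SE bars mark GADD45A, GADD45B and GADD45G; GADD45G lies at 4.76 in SCC15 and 5.52 in SCC25, in the sparse right tail, and GADD45A at 1.5 in SCC25 lies within the flank.

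GADD45A had the larger log2 fold change in SCC15, and GADD45B and GADD45G had theirs in SCC25. Taken as SCC25 minus SCC15, the log2 fold change differed by -1 ± 0.18 (SE) for GADD45A, 0.59 ± 0.18 for GADD45B and 0.76 ± 0.52 for GADD45G. These differences come from the comparison that chose the members and were not tested. The 2 tables were normalized separately, so levels in the 2 lines are set side by side as RPKM, without a test.

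The shares of the 3 members in the family shifted further in SCC25 than in SCC15. With DMSO, GADD45A held 80.5% ± 1.42 of the reads per kb of the 3 genes in SCC15 and 76.5% ± 1.5 in SCC25 (SD, n = 3). With squamocin it held 75.9% ± 1.55 in SCC15 and 45.7% ± 0.601 in SCC25. GADD45B went from 18.8% ± 1.43 to 20.9% ± 1.13 in SCC15 and from 22.9% ± 1.56 to 48.1% ± 0.672 in SCC25. GADD45G went from 0.696% ± 0.397 to 3.19% ± 0.550 and from 0.608% ± 0.0536 to 6.26% ± 0.343. In SCC15 the GADD45B shares of the squamocin and DMSO libraries overlapped, and in SCC25 no share overlapped between the groups. The summed family level went from 58.6 ± 3.63 to 250 ± 33.1 RPKM in SCC15 and from 105 ± 0.680 to 432 ± 18.4 in SCC25 (SD, n = 3).

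Since both genes are read in the same library, the ratio of GADD45B to GADD45A per kb needs no scaling between libraries. It was 0.217, 0.228 and 0.259 in SCC15 with DMSO and 0.294, 0.254 and 0.278 with squamocin. These ranges overlapped. In SCC25 the ratio was 0.271, 0.323 and 0.304 with DMSO and 1.07, 1.02 and 1.07 with squamocin, so that GADD45B lay slightly above GADD45A within each treated library. With the length of the canonical transcript, an alternative added after the data had been seen, the mean ratio in those libraries was 1.15 instead of 1.05. The order of the means was GADD45A, GADD45B, GADD45G in 3 of the 4 groups, and in SCC25 with squamocin the levels of GADD45B (198 to 220 RPKM) and GADD45A (192 to 206) overlapped between libraries. The mean ratio of GADD45G to GADD45A went from 0.00865 to 0.0420 in SCC15 and from 0.00794 to 0.137 in SCC25.

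The genes whose pattern over the 12 libraries lay closest to each member were sought among 9698 protein-coding genes. These had a mean of at least 100 normalized counts in each cell line. The measure was the root mean square difference in log2 units after subtracting the DMSO mean of each line. For GADD45A they were SQSTM1 (0.147), EIF1 (0.157), CDK2AP2 (0.180), HES4 (0.189) and NUPR1 (0.196). SQSTM1 encodes an autophagy adaptor, EIF1 a factor of start codon selection and NUPR1 a stress-induced nuclear protein. For GADD45B they were HERPUD1 (0.177), a component of ER-associated degradation, the cytokine genes CSF3 (0.210) and CXCL3 (0.248), the sterol enzyme MSMO1 (0.265) and the repressor BHLHE40 (0.277). For GADD45G the nearest genes were more distant, with SOCS1 (0.691), a feedback inhibitor of cytokine signaling, UPP1 (0.728), the MAP kinase phosphatase DUSP1 (1.03), the small heat shock protein CRYAB (1.04) and RRAD (1.14). GADD45G rested on 4 to 21 reads per DMSO library, and the part of this and of the required mean in its distances was not tested. The members themselves lay 0.920 (GADD45A and GADD45B), 1.55 (GADD45B and GADD45G) and 2.34 (GADD45A and GADD45G) apart. These genes follow the response that chose the members and are a description.

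Lists of genes around the family were then tested with limma, at an adjusted p under 0.05. In SCC15, 30.9% of all tested genes were higher and 30% lower with squamocin. In SCC25, 38.3% were higher and 38.5% lower. With libraries scaled to equal totals the calls went from 4921 higher and 4773 lower to 2337 and 8185 in SCC15, and from 6335 and 6367 to 5016 and 7887 in SCC25, so directions below are relative to the median gene of each line. The lists shared some genes and were chosen with earlier results known.

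Of 17 transcriptional regulators of GADD45 genes, 16 were tested, and 9 rose and 3 fell in SCC15, against 9 and 6 in SCC25. The median log2 fold change was 0.40 and 0.42. With equal totals 5 rose and 6 fell in SCC15, with a median of -0.10, and 9 rose and 6 fell in SCC25, with a median of 0.22. ATF4, the central factor of the integrated stress response, and DDIT3, which encodes CHOP, rose in both lines. ATF4 went from 4689 ± 103 to 22532 ± 4494 normalized counts in SCC15 (SD, n = 3, log2 fold change 2.25 ± 0.14, limma adjusted p = 3.21e-05) and from 9553 ± 27.5 to 17998 ± 815 in SCC25 (0.91 ± 0.04, limma adjusted p = 5.39e-10). DDIT3 rose by 4.30 ± 0.23 in SCC15 (limma adjusted p = 1.62e-05) and by 2.63 ± 0.046 in SCC25 (limma adjusted p = 1.66e-13). The stress factors ATF3 (1.56 and 2.54) and CEBPB (2.04 and 3.01) also rose in both lines.

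EGR1 and BRCA1 fell in both lines. EGR1, an immediate early factor, fell in SCC15 (log2 fold change -3.04, limma adjusted p = 1.22e-05) and in SCC25 (-4.19, limma adjusted p = 7.35e-16), the latter from 38765 ± 410 to 2122 ± 49.2 normalized counts (SD, n = 3). BRCA1 had log2 fold changes of -1.37 and -1.24. RELA, the NF-kappaB subunit, rose by 1.14 in SCC15 (limma adjusted p = 0.000112), and in SCC25 its log2 fold change was 0.12 (limma adjusted p = 0.117), or 0.175 without squamocin replicate 1 (limma adjusted p = 0.0343). MYC, a repressor of GADD45A, was called in opposite directions, at 0.75 in SCC15 (limma adjusted p = 0.000518) and -1.87 in SCC25 (limma adjusted p = 2.65e-12). With equal totals the SCC15 value of MYC was 0.26 (limma adjusted p = 0.119).

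Of 12 binding partners of GADD45 proteins, 7 rose and 0 fell in SCC15, and 9 rose and 1 fell in SCC25, with medians of 0.47 and 0.60. By an unadjusted p under 0.05 in limma 1 was lower in SCC15, edgeR called 2 lower and DESeq2 called 0, and without squamocin replicate 3 limma called 2 lower. With equal totals 4 rose and 4 fell in SCC15 against 9 and 2 in SCC25. CDKN1A, which encodes the CDK inhibitor p21, rose in both lines, from 4894 ± 205 to 11691 ± 926 normalized counts in SCC15 (SD, n = 3, limma adjusted p = 6.3e-05) and from 832 ± 8.41 to 5849 ± 261 in SCC25 (limma adjusted p = 1.13e-13). PCNA, the replication clamp, fell by 0.97 in SCC25 (limma adjusted p = 1.96e-07). In SCC15 its value was -0.38 (limma adjusted p = 0.101), and -0.60 without squamocin replicate 3 (limma adjusted p = 7.54e-09) or -0.88 with equal totals (limma adjusted p = 0.000824). GADD45GIP1, whose product is a mitochondrial ribosomal protein that binds GADD45 proteins, rose by 1.18 ± 0.28 in SCC15 (limma adjusted p = 0.00868) and by 0.45 ± 0.056 in SCC25 (limma adjusted p = 9.18e-06). In SCC15 it stood at 4958 in squamocin replicate 3 against 2229 and 2354 in the others, 2.16 times their mean, and without that library its log2 fold change was 0.81.

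MAP3K4, which GADD45 proteins activate, was at -0.02 on the log2 scale in SCC15 (limma adjusted p = 0.923) and rose by 0.37 in SCC25 (limma adjusted p = 3.68e-05). Without squamocin replicate 3 the SCC15 value of MAP3K4 was 0.20 (limma adjusted p = 0.00813). MAPK14, the p38 kinase that GADD45A binds, was at -0.23 in SCC15 (limma adjusted p = 0.0654) and 0.06 in SCC25 (limma adjusted p = 0.273), while with equal totals it fell in both (-0.73 and -0.15). Without squamocin replicate 3 its SCC15 value was -0.16 (limma adjusted p = 0.0102). MAP2K7, the JNK kinase that GADD45B inhibits, rose by 0.52 in SCC15 (limma adjusted p = 0.00143), but not with equal totals (0.02, limma adjusted p = 0.883). In SCC25 MAP2K7 was at 0.14 (limma adjusted p = 0.0561), and at 0.17 without squamocin replicate 2 (limma adjusted p = 0.025).

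In the wider p38 and JNK cascade of 12 genes, 6 rose and 2 fell in SCC15 (11 tested) and 6 rose and 2 fell in SCC25 (12 tested). With equal totals 3 rose and 4 fell in SCC15, and 5 rose and 5 fell in SCC25. MAP2K3, which phosphorylates p38, rose in both lines (0.89 and 1.21), while MAP2K6, which acts on the same kinase, fell in both (-3.03 and -2.40). MAP2K6 went from 75.7 ± 7.87 to 8.75 ± 3.42 normalized counts in SCC15 (SD, n = 3). In SCC25 it went from 23.67 ± 5.22 to 4.315 ± 2.86, so its change there rests on few reads (SE 0.51). Of 10 genes of the G2/M transition, 4 rose and 1 fell in SCC15, and 9 rose and 1 fell in SCC25. Without DMSO replicate 1 the count of those that rose in SCC15 was 1. With equal totals limma called 0 higher in SCC15, also 0 at an unadjusted p under 0.05, and 6 lower, while in SCC25 7 rose and 1 fell. CDK1 rose by 0.51 in SCC15 (limma adjusted p = 0.0129) and by 1.25 in SCC25 (limma adjusted p = 2.32e-10). The SCC15 call of CDK1 was lost with equal totals (0.01, limma adjusted p = 0.919) and without DMSO replicate 1 (limma adjusted p = 0.0506). CCNB1, the cyclin B1 transcript, was at 0.03 in SCC15 (limma adjusted p = 0.833), fell there by 0.47 with equal totals, and rose by 0.53 in SCC25 (limma adjusted p = 1.43e-07).

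Of 12 genes of DNA demethylation and excision repair, 5 rose and 4 fell in SCC15 (11 tested), and 5 rose and 6 fell in SCC25. With equal totals 2 rose and 4 fell in SCC15, where the median went from 0.29 to -0.20, and 3 rose and 6 fell in SCC25. TDG, the thymine glycosylase that GADD45A binds, rose by 0.44 in SCC15, where it was at -0.06 with equal totals, and by 0.74 in SCC25. ERCC4, a nuclease subunit of excision repair, fell in SCC15 (-1.57) and in SCC25 (-0.56). Of 15 ATF4 and CHOP target genes, 13 rose and 1 fell in SCC15, and 12 rose and 1 fell in SCC25, with medians of 1.97 and 1.70 against 0.01 and -0.01 over all genes. With equal totals 12 rose and 1 fell in SCC15, and 12 rose and 3 fell in SCC25. ASNS, encoding asparagine synthetase, rose by 3.76 and 3.40, and PPP1R15A, the GADD34 gene of the eIF2alpha phosphatase, by 3.46 and 2.97. PPP1R15A is named for the same growth arrest and DNA damage response but belongs to another protein family.

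Over 85 genes, which comprise these lists and a further list not described here, 79 were tested in SCC15 and 83 in SCC25. In SCC15 43 rose and 15 fell, and in SCC25 52 rose and 22 fell, while with equal totals 26 rose and 29 fell in SCC15, and 46 rose and 28 fell in SCC25. Among the 79 tested in both lines 33 rose in both, 8 fell in both and 11 were called in opposite directions. With equal totals 20 rose in both and 14 fell in both. The shares of all genes called alike or oppositely in both lines were not counted, so these counts describe the listed genes only. The change differed between the cell lines for 62 of the 79 genes (limma contrast of the 4 group means, adjusted p under 0.05), against 52.2% of all genes tested in both lines.

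**Figure D4:**
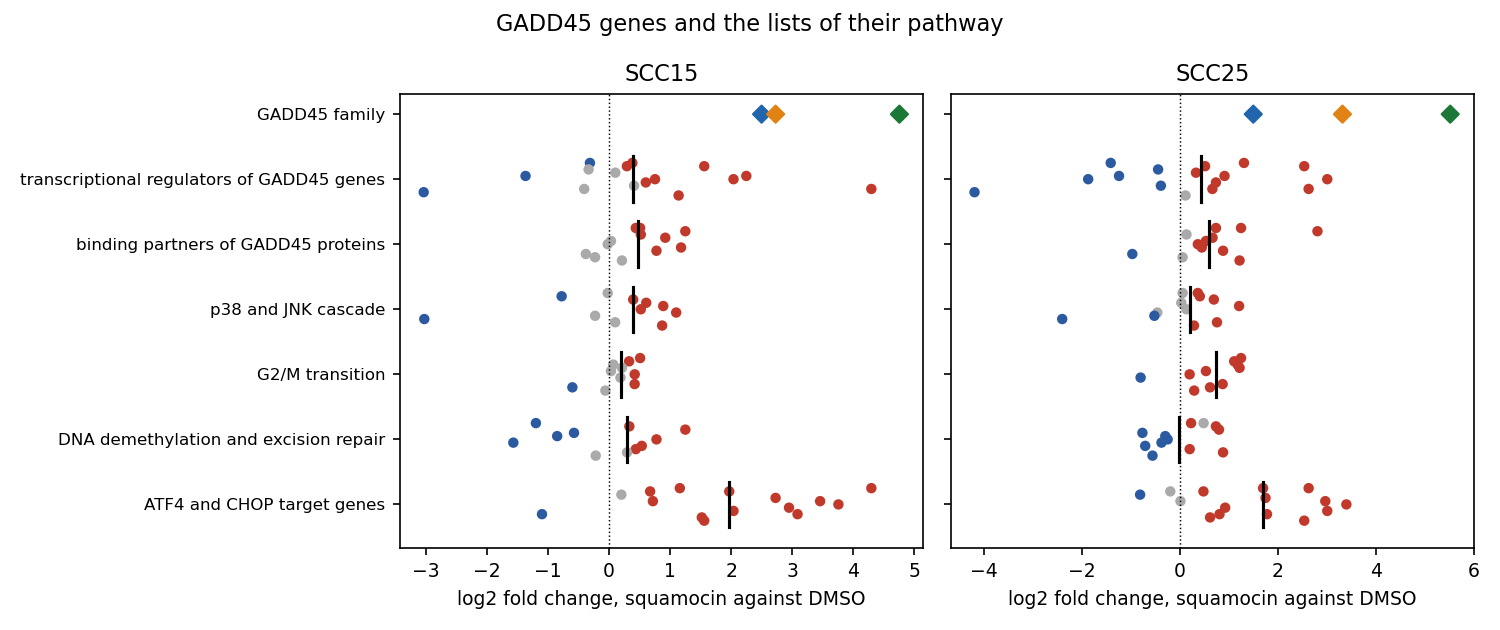
Log2 fold change (squamocin against DMSO) of the GADD45 genes (diamonds: GADD45A blue, GADD45B orange, GADD45G green) and of the genes of each list (circles: red higher, blue lower, grey not called), with the list's median as a black bar, in both cell lines. The ATF4 and CHOP target genes have the highest medians (1.97 and 1.70), and GADD45G lies above every gene of the lists in both lines.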

How the data were processed

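RNA-seq libraries of SCC15 and SCC25 cells were made, sequenced and counted by the authors, with HISAT2 v2.0.5, featureCounts v1.5.0-p3 and GRCh38 named in the submitters' processing notes. The annotation release and the strand setting of the counting are not given in the sources used here. The values deposited for each library are a signal, namely reads per gene over that library's own size factor, which the authors set within each cell line. In 1 table they are headed FPKM. Multiplied by the recovered factor, 100% of values came out whole within 0.1 read in each library, giving 16665563 to 22748845 reads per library. The authors' own group means, fold changes and p-values were not used.

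Normalized counts were raised by a pseudocount of 1, put on a log2 scale and compared by the moderated, trended, two-sided test of limma 3.58.1 under R 4.3.3. The p-values were adjusted after Benjamini and Hochberg over 15902 genes in SCC15 and 16539 in SCC25 with a mean of at least 10. Fold changes are on that scale and understate low genes. The difference between lines was a contrast over the 14454 genes tested in both. edgeR 4.0.16 on the recovered reads called 4712 genes higher and 5168 lower in SCC15, and 6298 and 6506 in SCC25. DESeq2 1.42.0, other pseudocounts and filters, TMM factors, equal library totals, a replicate block and leaving out each library were the alternatives. The statistics were tested on simulated counts, in which few genes changed and no library stood apart. These data differ in both respects, so that test does not cover calls that depend on the scaling or on 1 library. RPM divides recovered reads by the library's total, and RPKM divides RPM by the exonic length in kb, from the exonic bases of GENCODE v44 (1925 for GADD45A, 2138 for GADD45B and 1323 for GADD45G). In that release GADD45A starts at 67685201, against 67685061 in the annotation given with the counts. The exonic length that was counted may thus differ from the length used here.

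The members and lists were chosen with earlier results of these data known. The 3 members, any regulator or binding partner, up to 4 genes of each other list (largest mean change among those called alike in both lines) and the 5 genes most like each member could be named. A listed gene and 1 list are left undescribed.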

Additional observations from a re-analysis of the deposited data

Results flagged for a closer look

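The 17 genes given here, each described with the lists above, were kept because their change with squamocin differed between the cell lines. The test was the limma contrast of the 4 group means, with Benjamini-Hochberg adjustment over all genes tested in both lines. Genes described with those lists that did not pass, such as BRCA1 (limma adjusted p = 0.539) and MAP3K4 (0.116), are left out. Values are log2 fold changes in SCC25 minus those in SCC15. Of all genes tested in both lines 52.2% passed the same test, a share with which the 17 cannot be compared. Over all genes the contrast called 3761 higher and 3779 lower in SCC25, and 5471 and 2397 with libraries scaled to equal totals. The median difference went from -0.01 to 0.28, so the differences below depend on the scaling. Their values under equal totals are not given here. No such test is given for the GADD45 genes, which were chosen on their response.

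Among the regulators, the difference was -1.33 for ATF4 (limma adjusted p = 1.73e-05), -1.67 for DDIT3 (0.000105), -1.15 for EGR1 (1.8e-05), -1.03 for RELA (3.39e-05) and -2.62 for MYC (4.28e-09). It was 0.97 for CEBPB (limma adjusted p = 0.00131) and 0.99 for ATF3 (6.63e-06). ATF4 and DDIT3 thus rose by less in SCC25, and CEBPB and ATF3 by more.

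Among the binding partners, the difference was 1.56 for CDKN1A (limma adjusted p = 1.34e-07), 0.74 for CDK1 (0.00115), 0.50 for CCNB1 (0.00455), 0.29 for MAPK14 (0.0307) and 0.30 for TDG (0.0338), and it was -0.59 for PCNA (0.0356) and -0.38 for MAP2K7 (0.00768). Among the other lists, it was -0.49 for PPP1R15A (limma adjusted p = 0.00125), 0.32 for MAP2K3 (0.022) and 1.02 for ERCC4 (0.000561).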

How the results depend on the processing

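With libraries scaled to equal totals the log2 fold change was 2.00 in SCC15 and 1.29 in SCC25 for GADD45A, 2.23 and 3.11 for GADD45B, and 5.32 in SCC25 for GADD45G. With a pseudocount of 10 it was 3.72 and 4.91 for GADD45G. All members kept their direction under the alternatives examined for them, which did not include the other filters. The members were chosen on this comparison and their groups did not overlap, so the kept direction supports nothing further. Leaving out each library in turn gave 2.32 to 2.63 and 1.48 to 1.52 for GADD45A, 2.54 to 2.85 and 3.26 to 3.36 for GADD45B, and 4.26 to 5.16 and 5.48 to 5.59 for GADD45G. Of the listed genes, 26 were higher and 29 lower in SCC15 with equal totals, and 36 to 46 higher and 12 to 19 lower with 1 library left out. With equal totals the sign turned, among the listed genes given values above, for CCNB1 in SCC15 (-0.47), MAPK14 in SCC25 (-0.15), TDG in SCC15 (-0.0598), and RELA (-0.09) and MAP2K7 (-0.07) in SCC25, which passed the threshold under neither scaling. MAP3K4 in SCC15 was at 0.20, and called, without squamocin replicate 3. Where 1 group kept 2 libraries, its spread was taken as that of the other groups. Samples with the same replicate number did not deviate together (correlations -0.0511 to 0.0078, 0 of 6 libraries in each line closest to their own number). No pairing by number was seen, but 3 libraries per group cannot exclude a shared culture or batch. With the replicate block, GADD45A stayed at 2.50 and 1.5 and the count of listed genes higher was 43 in SCC15 and 53 in SCC25, and of the genes named only MAP2K7 in SCC25 changed its call (limma adjusted p = 0.0422). GADD45G with DMSO rests on 4 to 21 reads per library, which limits the precision of its ratio.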
